A study of Mus musculus with 162 samples.

Results

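Neutrophil identity genes were followed through mouse skin, trigeminal ganglia and spinal cord after topical MC903 and after injection of the neutrophil-depleting antibody anti-Gr1 (aGr1). The 10 genes were taken by name out of 46078 genes counted. They fell into 5 genes of the mature cell (Ly6g, Retnlg, Csf3r, Trem1 and Clec4d), 4 granule and precursor genes (Ngp, Ltf, Mpo and Elane) and 1 ligand (Csf3). RNA-seq of poly(A) RNA gave 144 libraries for these comparisons, 61 of skin, 56 of trigeminal ganglion (TG) and 27 of spinal cord.

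MC903 (calcipotriol) is a vitamin D analogue that raises an atopic dermatitis-like lesion when painted on mouse skin, and ethanol is its vehicle. The labels describe adult C57BL/6 males and a daily dose of 20 µL, either MC903 at 0.2 mM or the vehicle alone. The study's methods give the cheek as the site for skin and TG, and the back, with another volume, for the mice whose spinal cord was taken. Uninjected wild-type skin was taken at day 1 (4 MC903 and 4 ethanol libraries), day 2 (3 and 2), day 5 (3 and 3) and day 8 (5 and 6). Day 1 is given in the study's methods as 6 hours after treatment. Wild-type mice injected with PBS gave 2 MC903 and 3 ethanol skin libraries at day 8, and mice injected with 250 µg of anti-Gr1 gave 4 and 4. Uninjected TSLPR.KO mice, which lack a chain of the receptor for the cytokine TSLP, gave 3 and 2 skin libraries at day 8 and 4 and 3 at day 12. Uninjected BLT1.KO mice, which lack a receptor for leukotriene B4, gave 3 and 3 at day 8. In the TG at day 8 there were 4 and 4 aGr1, 4 and 3 PBS and 5 and 5 uninjected wild-type libraries, and in the spinal cord 8 and 6, 2 and 2, and 4 and 5.

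Neutrophils are made in bone marrow from promyelocytes, which fill primary granules with Mpo and Elane. Myelocytes then fill secondary granules with Ngp and Ltf and shut the primary genes down, so that the cell released to blood and tissue carries granule protein but little granule messenger RNA, and instead expresses genes such as Csf3r, Retnlg, Trem1 and Clec4d. Csf3 (G-CSF) drives this line and acts through Csf3r. The antibody used for depletion, clone RB6-8C5, binds Ly-6G, the product of Ly6g, and also binds Ly-6C, which monocytes carry. The study's methods give daily intraperitoneal injection from the day before MC903 began.

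Depth was 15931871 to 67342879 counts on genes per library. The labels do not say whether libraries of a group came from separate animals, while the study's methods speak of replicate measurements from treated and control mice. The p-values measure the spread between libraries, part of which may be technical. Levels are given in cpm, the count of a gene scaled to the library's total on genes, differences as log2 fold changes ± SE from edgeR's quasi-likelihood test, and adjusted p-values are Benjamini-Hochberg values over all genes tested. A gene was called at an adjusted p under 0.05 in skin and spinal cord and under 0.1 in TG, the thresholds of the study's methods. Genes at 3 counts or below in a library were treated as undetected there. Keratinocyte genes summed to at least 3780 cpm in every skin library and at most 391.7 cpm in TG and 15.8 cpm in spinal cord. Sensory ganglion neuron genes summed to at least 841 cpm in every TG library and to 5.89 to 961.3 cpm in skin, the highest being a day 2 MC903 library, and spinal cord genes reached 1405 cpm in skin, also at day 2. Crlf2, the gene deleted in TSLPR.KO, lay at 0.0691 to 1.34 cpm in TSLPR.KO skin and at 2.24 cpm or more in wild-type skin. Ltb4r1, the gene of BLT1, was read at 2.33 to 15.2 cpm in skin labelled BLT1.KO, overlapping the wild-type range of 2.52 to 77.6 cpm, so the counts do not check that label.

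Promoters of 4 members are shown because the 250 bases before their RefSeq start (GRCm38.p6) hold the letters of a C/EBP site, TTGCNNAA or on the other strand TTNNGCAA. C/EBP factors are transcription factors of the granulocyte line. The letters occurred in 4 of the 9 members with a promoter entry and in 9.55% of 27025 mouse promoters, and a match is a description of the letters only. The stretches upstream of the annotated gene are printed 5′ to 3′ on the plus strand, the strand of all 4 genes, with the C/EBP letters in capitals.
Ly6g, chr15:75155011-75155239: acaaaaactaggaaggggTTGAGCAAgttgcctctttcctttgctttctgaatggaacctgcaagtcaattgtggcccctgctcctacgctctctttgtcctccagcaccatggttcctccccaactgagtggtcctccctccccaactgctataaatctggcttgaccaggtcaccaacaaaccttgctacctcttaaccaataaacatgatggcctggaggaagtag
Retnlg, chr16:48872358-48872607: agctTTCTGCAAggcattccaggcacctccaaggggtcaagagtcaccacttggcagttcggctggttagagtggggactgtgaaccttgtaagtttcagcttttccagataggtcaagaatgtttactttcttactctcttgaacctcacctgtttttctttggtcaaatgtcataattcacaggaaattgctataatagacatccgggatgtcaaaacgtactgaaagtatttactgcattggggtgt
Ngp, chr9:110419558-110419746: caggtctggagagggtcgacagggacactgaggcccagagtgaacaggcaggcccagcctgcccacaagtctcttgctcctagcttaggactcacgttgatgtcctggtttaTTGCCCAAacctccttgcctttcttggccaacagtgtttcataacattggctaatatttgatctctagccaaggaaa
Ltf, chr9:111019042-111019270: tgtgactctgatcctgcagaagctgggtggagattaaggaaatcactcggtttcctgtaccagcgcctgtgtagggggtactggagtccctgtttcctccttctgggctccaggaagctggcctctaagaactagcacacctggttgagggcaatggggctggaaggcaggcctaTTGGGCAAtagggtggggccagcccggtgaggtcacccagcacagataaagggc
Ngp and Ltf lie near each other on chromosome 9, and Ngp held a second match inside its annotated gene. Both granule promoters thus carried the letters, as did those of the mature genes Ly6g and Retnlg, while Csf3r, Trem1, Clec4d, Mpo and Elane did not carry them in this window.

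In a bulk tissue a lower level of these genes can mean fewer neutrophils or less RNA in each. It can also come from other cells or tissue in the sample, and these cannot be told apart. The members were low. Ly6g was above 3 counts in only 11 of 61 skin libraries and at 0 in 35, with at most 17 counts, so skin gave little power to read the depleted antigen's own gene. Ly6g was above 3 counts in 15 of 56 TG and 19 of 27 spinal cord libraries. Csf3r was detected in every library of all 3 tissues, Retnlg in 52 of 61, 45 of 56 and 27 of 27, and Clec4d in 51, 12 and 12. Trem1 was detected in 30 skin, 8 TG and 13 spinal cord libraries. Of the granule genes, Ngp was detected in 11 skin, 53 TG and all 27 spinal cord libraries, Ltf in 43, 53 and 27, Mpo in 51, 41 and 27, and Elane in 25, 20 and 24. Csf3 was above 3 counts in 16 skin libraries, in 0 TG and in 1 spinal cord library.

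Per kilobase of exon, the order of members differed between tissues. In skin, the median library had 1.11 cpm per kilobase of Csf3r, 0.751 of Retnlg, 0.181 of Mpo, 0.0922 of Ltf and 0 of Ngp. In spinal cord the same measure was 10.1 for Ngp, 3.52 for Retnlg, 1.98 for Csf3r, 1.70 for Ltf and 0.362 for Mpo, and in TG 1.38 for Ngp, 0.721 for Retnlg, 0.674 for Csf3r, 0.403 for Ltf and 0.0854 for Mpo. Ngp thus had the highest per-length median of these 5 genes in both nervous tissues and the lowest in skin. Members of one class did not all vary together over the 61 skin libraries, which share depth limits and treatment groups. On log2(cpm + 0.5), Pearson's r was 0.930 between Trem1 and Clec4d, 0.904 between Csf3r and Trem1 and 0.785 between Retnlg and Csf3r, but 0.080 between the granule genes Ngp and Ltf and 0.230 between Ly6g and Retnlg.

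The first comparison asked how MC903 moved the members in uninjected wild-type skin over time. At day 1 no mature gene was called. Csf3r, the G-CSF receptor, was at 2.98, 5.18, 2.70 and 3.89 cpm with MC903 and at 3.40, 3.70, 3.29 and 3.26 cpm with ethanol. Mpo, myeloperoxidase of primary granules, was the 1 member of 7 tested that passed, in a comparison where 13% of all genes were called and 7.47% were lower. It was at 0.631, 0.471, 0.156 and 0.306 cpm with MC903 against 2.58, 2.51, 1.76 and 1.17 cpm with ethanol. The groups did not overlap, and the log2 difference was -2.39 ± 0.36 (adjusted p = 0.00431). At day 2, edgeR called 0 of 7 members and 0% of all genes, with 1 member (Clec4d) and 1191 genes at an unadjusted p under 0.05, and DESeq2 called 0 members. In the same fit nerve tissue genes stood at 5.20 ± 2.42 (Prph), 5.10 ± 2.33 (Scn10a) and 5.70 ± 2.51 (Gfap), none of them called, and their part in the day 2 result was not tested.

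At day 5, 3 of the 8 members tested had risen and 1 had fallen, where 14.9% of all genes were called, 8.15% higher and 6.78% lower. Csf3r was at 13.5, 12 and 7.72 cpm with MC903 and at 4.11, 3.41 and 1.41 cpm with ethanol, without overlap (log2 difference 1.86 ± 0.33, adjusted p = 0.0106). Trem1, an activating receptor of neutrophils and monocytes, was at 2.15, 0.689 and 0.995 cpm against 0.0328, 0.120 and 0 cpm (4.51 ± 0.82, adjusted p = 0.0107). Clec4d, a C-type lectin receptor for fungal and mycobacterial glycolipid, was at 4.31, 4.17 and 2.11 cpm against 0.0985, 0.120 and 0.0361 cpm (5.24 ± 0.50, adjusted p = 0.00073). Every MC903 library of these genes was above every ethanol library. Retnlg, a resistin-like secreted protein of neutrophils, had not passed by this day, with a log2 difference of 0.65 ± 0.52 (adjusted p = 0.444). Mpo fell (-2.59 ± 0.72, adjusted p = 0.0468), a call that was lost when MC903 replicate 1 or 2 or any 1 of the 3 ethanol libraries was left out, with adjusted p-values of 0.0510 to 0.166. Ly6g, at 0.0399, 0.310 and 0 cpm with MC903, had its highest skin level of any library in an ethanol library of this day, where the ethanol values were 0.296, 0.120 and 0.542 cpm.

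At day 8, 5 of the 10 members tested had risen and 1 had fallen, where 23.4% of all genes were called, 12.2% higher and 11.2% lower. Csf3r was at 16.4, 13.2, 35, 11.5 and 14.6 cpm with MC903, against a lowest, median and highest of 2.70, 3.05 and 5.77 cpm in 6 ethanol libraries (2.32 ± 0.29, adjusted p = 9.37e-05). Trem1 was at 5.45, 3.08, 14.7, 1.88 and 3.31 cpm against 0, 0.0984 and 0.278 cpm (5.32 ± 0.59, adjusted p = 4.11e-05). Clec4d was at 10.5, 7.02, 20.1, 1.54 and 6.14 cpm against 0.0537, 0.160 and 0.336 cpm (5.46 ± 0.55, adjusted p = 1.64e-05). For all 3 genes the groups stood apart, and the same MC903 library of cohort A was the highest. Retnlg, now called, was at 4, 2.16, 7.71, 2.05 and 2.64 cpm against 0.0537, 0.281 and 0.523 cpm, again without overlap (3.81 ± 0.54, adjusted p = 0.000295).

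The ligand rose at day 8 too. Csf3 was at 0.444, 0.0288, 0.499, 0.0684 and 0.638 cpm with MC903 and at 0 in all 6 ethanol libraries, which makes it at least 3.94-fold higher against the floor of 3 counts per library (adjusted p = 0.0109). Mpo moved the other way, at 0.0592, 0.0575, 0, 0.342 and 0 cpm against 0.617, 1.24 and 2.47 cpm, all MC903 libraries being below all ethanol libraries (-3.94 ± 0.65, adjusted p = 0.000918). Ngp, Ltf and Elane did not pass, with log2 differences of 1.97 ± 1.36, 2.50 ± 1.09 and 1.40 ± 1.10 (adjusted p = 0.33, 0.117 and 0.4), nor did Ly6g (2.61 ± 1.25, adjusted p = 0.154), whose MC903 values were 0.326, 0.0575, 0.222, 0 and 0 cpm. Of the 4 granule and precursor members, none was called higher and 1 was called lower, against 4 of 5 mature members called higher. The 3 not called had estimates above 0, and Ngp had only 8 counts against 2, so a rise in them is not excluded. Mpo overlaps Gm11505 on the opposite strand, and Trem1 overlaps AC241601.2 likewise. The strand setting of the counting is not given in the sources used here, so reads of such pairs cannot be told apart.

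**Figure D1:**
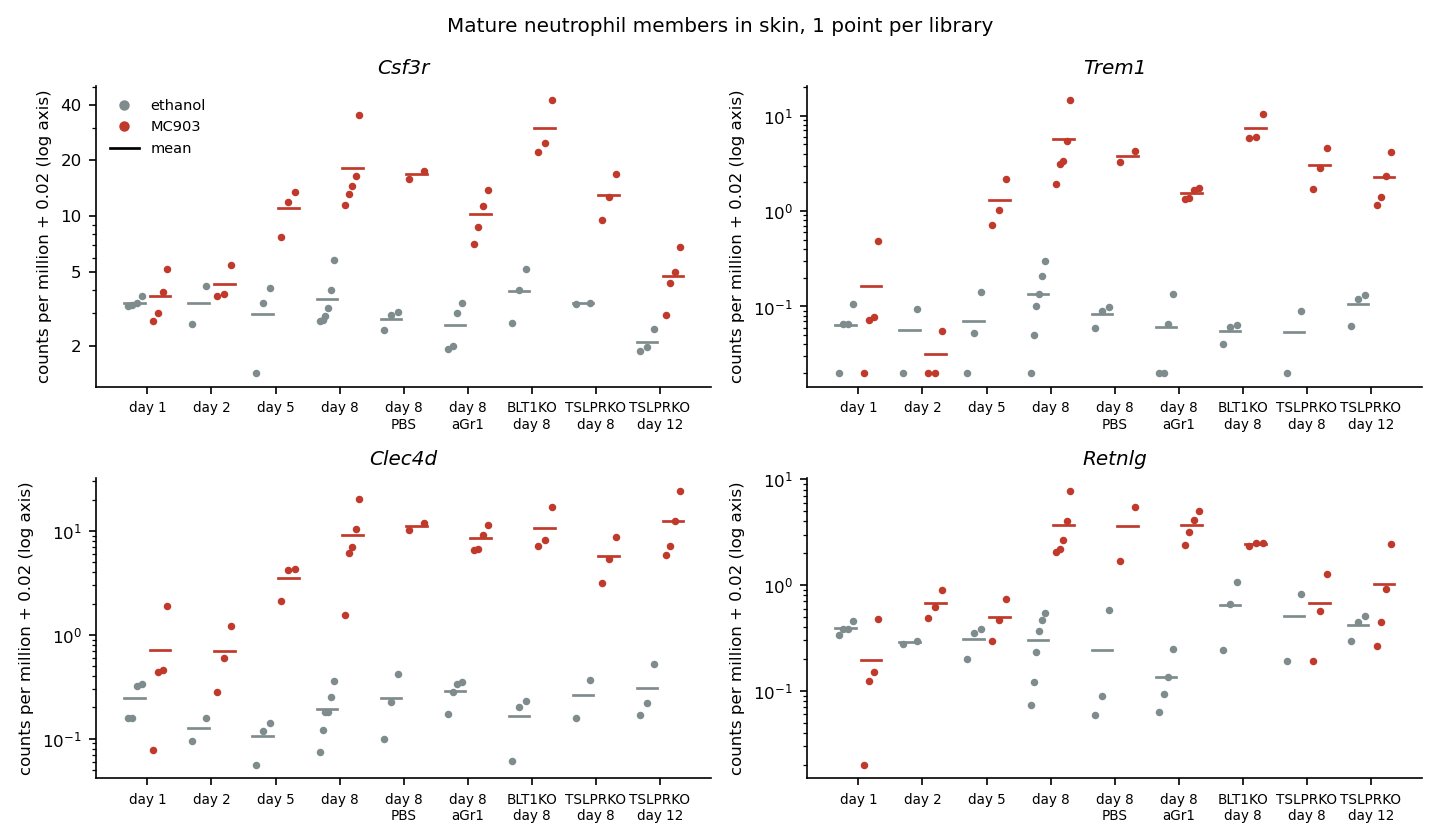
Levels of Csf3r, Trem1, Clec4d and Retnlg in skin, as cpm + 0.02 on a log axis, by day, genotype and injection. Each point is a library, ethanol in grey and MC903 in red, and lines are group means. From day 5 every MC903 library of Csf3r, Trem1 and Clec4d lies above the ethanol libraries of its own group, aGr1 libraries included.

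Other neutrophil genes, from lists written with earlier results known, were counted in the same tests. Of 15 other mature neutrophil genes, 13 rose at day 8, where 12.2% of all genes were higher. The list median was 3.99 on the log2 scale. Among them were the calprotectin subunit gene S100a9 (6.18 ± 0.51), the stefin Stfa2l1 (5.80 ± 0.34) and the cytokine Il1b (5.18 ± 0.50). At day 1, when no mature member and 13% of all genes were called, Stfa2l1 (2.58 ± 0.54) and Cxcr2 (0.62 ± 0.15) were already higher. Ccrl2 of the same list was lower then (-0.86 ± 0.21). Whether the RNA of this list came from neutrophils was not tested. Of 10 other secondary and tertiary granule genes, 5 rose and 1 fell, with a median of 1.41. Those that rose included the collagenase Mmp8 (5.20 ± 0.26), lipocalin Lcn2 (3.64 ± 0.22) and Chil3 (6.85 ± 0.71), the last 2 of which are also made outside neutrophils, and Ifitm6 fell (-1.93 ± 0.29). Of 7 promyelocyte genes tested, none was called. Of 9 recruitment signals tested, 8 rose with a median of 4.92, among them the chemokines Cxcl5 (6.68) and Cxcl3 (5.57), Il6 (5.49) and Socs3 (2.06), a feedback inhibitor of G-CSF and Il6 signalling. Genes of other cells were called in the same test, with 6 of 6 mast cell and basophil genes higher (Mcpt8 7.32 ± 0.36, Ms4a2 2.18 ± 0.21) and 6 of 11 monocyte and macrophage genes higher (Cd14 2.38 ± 0.41, Fcgr1 1.87 ± 0.42). Of the 4 T cell genes 2 were higher and 2 lower, and Dntt of the B cell list (5.07 ± 0.89) and Prg2 of the eosinophil list (4.18 ± 1.20) were higher. The part of these cells in the members' levels was not tested.

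Mature members also rose in the knockouts. In TSLPR.KO skin at day 8, 3 of 7 members tested rose and 1 fell, where 2.44% of all genes were called, 1.3% higher and 1.14% lower. Csf3r was at 16.8, 12.7 and 9.48 cpm with MC903 and at 3.35 and 3.40 cpm with ethanol (1.96 ± 0.31, adjusted p = 0.0117), and Clec4d at 8.67, 5.31 and 3.16 cpm against 0.138 and 0.347 cpm (4.53 ± 0.60, adjusted p = 0.00536). Trem1 had 271 counts against 2, a ratio of 85.9 (95% interval 23.6 to 713 for counting error only, adjusted p = 0.00579). The groups of these 3 genes did not overlap. Retnlg, at 1.25, 0.546 and 0.172 cpm against 0.795 and 0.173 cpm, overlapped and did not pass (0.45 ± 0.88, adjusted p = 0.869). Mpo fell (-4.43 ± 0.93, adjusted p = 0.0415). Without MC903 replicate 1 only Clec4d of these 4 was still called, the others having adjusted p-values of 0.05004 (Trem1), 0.0589 (Csf3r) and 0.208 (Mpo), and without ethanol replicate 1 Csf3r (0.0650) and Mpo (0.419) were lost. Whether Retnlg responds differently in TSLPR.KO and wild-type skin was not tested.

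In skin labelled BLT1.KO, 5 of 9 members tested rose and 1 fell, where 28.6% of all genes were called, 14.1% higher and 14.6% lower. Csf3r was at 42.5, 24.7 and 22.3 cpm against 3.99, 2.63 and 5.20 cpm (2.86 ± 0.32, adjusted p = 0.00027). Trem1 was at 10.4, 5.91 and 5.88 cpm against 0.0445, 0.0402 and 0.0204 cpm (7.55 ± 0.41, adjusted p = 1.46e-05). Both genes stood apart between treatments. Clec4d rose too (6.11 ± 0.55, adjusted p = 0.000103), and Csf3 had 83 counts against 1, a ratio of 84.3 (14.7 to 3370, adjusted p = 0.00636). Retnlg was at 2.49, 2.48 and 2.33 cpm against 0.638, 0.221 and 1.04 cpm (1.89 ± 0.52, adjusted p = 0.0251), and was lost without any 1 of the 3 MC903 libraries or ethanol replicate 1 (adjusted p 0.0574 to 0.0669). Mpo was at 0.112, 0.102 and 0.115 cpm against 7.38, 13.5 and 3.83 cpm, its widest gap in skin (-6.22 ± 0.53, adjusted p = 7.85e-05).

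At day 12 in TSLPR.KO skin, 2 of 9 members tested rose and 1 fell, where 10% of all genes were called, 5.41% higher and 4.62% lower. Trem1 was at 2.30, 1.37, 4.16 and 1.15 cpm against 0.113, 0.101 and 0.0426 cpm (4.50 ± 0.61, adjusted p = 0.00261). Clec4d was at 12.4, 7.13, 24.1 and 5.80 cpm against 0.203, 0.504 and 0.149 cpm (5.30 ± 0.62, adjusted p = 0.00125). Again no MC903 library of either gene reached down to an ethanol library. Csf3r was at 4.36, 4.97, 6.78 and 2.92 cpm against 1.96, 2.44 and 1.85 cpm and missed the threshold (0.99 ± 0.27, adjusted p = 0.052). Ltf, lactoferrin, was at 0.391, 0.222, 0.246 and 0.609 cpm with MC903 and at 51.9, 4.64 and 209 cpm with ethanol, and fell (-8.32 ± 1.25, adjusted p = 0.00424).

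Ltf in skin was unlike the other granule genes. It exceeded 10 cpm in 13 of 61 skin libraries, 5 of 31 with MC903 and 8 of 30 with ethanol, and its highest value was 208.7 cpm. Such libraries lay in several groups and days, among them day 1 MC903 replicate 3 (165 cpm) and day 2 ethanol replicate 2 (111 cpm). Over the 61 libraries, which share groups and depth limits, the genes whose log2 levels followed Ltf most closely were Ly6f (r = 0.978), Gm12886 (0.977), Fgg (0.976), Esp31 (0.973) and Dmbt1 (0.972). Esp31, of a family of secreted exocrine gland peptides, reached 550.6 cpm. The neighbours of Ltf were named after its values were seen, and the part of any gland tissue in these libraries was not tested. In aGr1 MC903 replicate 3, where Ngp was at its highest skin level of 3.18 cpm, Ltf was also at 3.18 cpm and Esp31 at 0. In replicate 2 of that group, with Ngp at 2.73 cpm and Esp31 at 0, Ltf was at only 0.198 cpm.

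**Figure D2:**
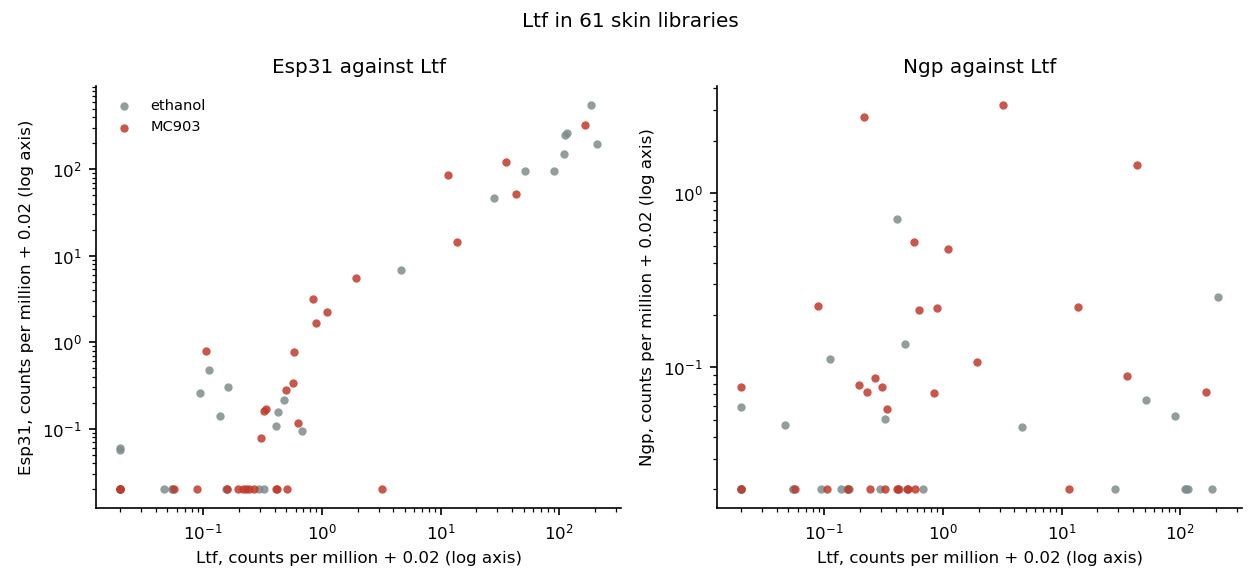
Esp31 and Ngp against Ltf in 61 skin libraries, as cpm + 0.02 on log axes. Each point is a library, ethanol in grey and MC903 in red. Esp31 rises with Ltf (r = 0.973 on the log2 scale) and Ngp does not (r = 0.080).

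Genes closest in pattern to other members over the same libraries were Hdc (r = 0.888), the histamine-forming enzyme, Chil3 (0.880) and the chemokine Cxcl3 (0.880) for Retnlg, and Camp (0.687), the cathelicidin of secondary granules, Gm38399 (0.658) and Mrgprg (0.643) for Ngp. For Csf3r they were Tfec (0.940), Nlrp3 (0.928) and Ccr1 (0.927). Mpo went instead with Peli2 (0.795), Lhpp (0.793) and the basal keratin gene Krt15 (0.784), and its r with Trem1 was -0.566. Krt15 was at 268 to 368 cpm in day 8 uninjected MC903 skin and at 676 to 1223 cpm in the ethanol skin. The highest r was 0.657 (Ttc23l) for Ly6g and 0.491 (Gm15551) for Elane, whose counts were mostly at or under 3. Next for Ly6g was Scgb2b26 (0.643). Among the members, Ly6g had its highest r with Ltf (0.475) and not with a mature gene, and the reason was not tested. The genes for Csf3r and Mpo were named after values were seen.

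The next comparisons asked what aGr1 did to the MC903 response. In PBS-injected skin, 4 of 7 members tested rose and none fell, where 3.99% of all genes were called and 3.26% were higher. Csf3r was at 17.6 and 16 cpm with MC903 and at 2.92, 3.02 and 2.41 cpm with ethanol (2.62 ± 0.22, adjusted p = 0.00263). Trem1 was at 3.25 and 4.20 cpm against 0.0688, 0.0397 and 0.0790 cpm (5.82 ± 0.42, adjusted p = 0.00181). Clec4d was at 10.1 and 12 cpm against 0.206, 0.397 and 0.0790 cpm (5.61 ± 0.49, adjusted p = 0.00312). Each of these stood apart between treatments, as did Csf3, at 0.826 and 0.768 cpm against 0 in all 3 ethanol libraries, at least 7.02-fold higher (adjusted p = 0.0279). Retnlg, at 1.65 and 5.50 cpm against 0.0688, 0.555 and 0.0395 cpm, missed the threshold (4.07 ± 0.94, adjusted p = 0.0739), as did Ltf (5.74 ± 1.31, adjusted p = 0.0721). Without PBS ethanol replicate 1 only Trem1 was called, with adjusted p-values of 0.0534 for Csf3r, 0.0706 for Clec4d and 0.122 for Csf3. Csf3 was also lost without ethanol replicate 3 (0.0536) or either MC903 library (0.137 and 0.136).

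In aGr1-injected skin the mature genes rose as well, and Ngp with them. Of 9 members tested 6 rose and none fell, where 32.6% of all genes were called and 15.1% were higher. Csf3r was at 8.73, 13.8, 11.3 and 7.04 cpm with MC903 and at 3.40, 1.97, 2.98 and 1.91 cpm with ethanol (1.65 ± 0.24, adjusted p = 0.00107). Trem1 was at 1.74, 1.34, 1.32 and 1.64 cpm against 0.116, 0, 0.0452 and 0 cpm (4.71 ± 0.56, adjusted p = 0.000342). Clec4d was at 6.67, 9.21, 6.61 and 11.4 cpm against 0.154, 0.329, 0.316 and 0.261 cpm (4.60 ± 0.33, adjusted p = 2.44e-05). No MC903 library of these genes overlapped an ethanol library. Retnlg was at 2.38, 4.15, 3.13 and 5.01 cpm against 0.116, 0.0731, 0.226 and 0.0435 cpm, also apart (4.63 ± 0.39, adjusted p = 5.55e-05). Ngp, neutrophilic granule protein, was at 0.502, 2.73, 3.18 and 1.44 cpm against 0.116, 0, 0 and 0 cpm, or 174 counts against 3, a ratio of 65 (21.9 to 318, adjusted p = 0.00242). Ngp was tested in 4 of the 8 other skin comparisons of MC903 with ethanol (day 1, day 2 and day 8 of uninjected wild-type mice and day 12 of TSLPR.KO) and called in none of them by edgeR. Csf3 had 81 counts against 1, a ratio of 90.7 (15.8 to 3630, adjusted p = 0.00112). Mpo, at 1.92, 0.632, 1.32 and 0.198 cpm against 2.08, 1.06, 2.53 and 0.565 cpm, overlapped and did not pass (-0.92 ± 0.56, adjusted p = 0.245). Of the other mature neutrophil genes 12 of 15 rose and 1 fell with aGr1 (median 2.46, or 2.41 with genes at 0 in a group set to their bound), and 13 of 15 rose with PBS (4.42, or 4.04 with bounds). B cell genes summed to 273.2, 114.8, 15.2 and 2 cpm in the 4 aGr1 ethanol libraries and to 2.35 to 3.37 cpm in the aGr1 MC903 libraries. Leaving out the 2 highest of those ethanol libraries, a choice made after seeing the data, left 6 members called.

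Set directly against PBS within MC903-treated skin, aGr1 moved no member past the threshold. The edgeR test called 0 of 9 members and 0.213% of all genes, with 3 members (Csf3r, Trem1 and Ngp) at an unadjusted p under 0.05, and DESeq2 called 1 member, Trem1 (log2 difference -1.22, adjusted p = 0.0304). Trem1 at 1.32 to 1.74 cpm with aGr1 lay below both PBS libraries, at 3.25 and 4.20 cpm (-1.24 ± 0.37, adjusted p = 0.208). Csf3r at 7.04 to 13.8 cpm lay below 17.6 and 16 cpm (-0.64 ± 0.25, adjusted p = 0.361). Ngp at 0.502 to 3.18 cpm lay above 0.0517 and 0.202 cpm (3.9 ± 0.96, adjusted p = 0.136). These groups did not overlap, but how many of all genes stood apart with 4 aGr1 and 2 PBS libraries was not counted. None of the differences was called by edgeR. Clec4d (-0.31 ± 0.36, adjusted p = 0.807) and Retnlg (0.09 ± 0.61, adjusted p = 0.982) overlapped between aGr1 and PBS.

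For Ly6g itself, MC903-treated skin held 1 and 5 counts in the PBS libraries and 1, 1, 0 and 0 in the aGr1 libraries, 6 counts against 2. The ratio of PBS to aGr1 was 5.97 with a 95% interval of 1.07 to 60.5 for counting error only, and Ly6g was under the count filter of this fit. Its relatives Ly6c2, at 20.7 to 21.8 cpm with aGr1 and 23.3 to 26.2 cpm with PBS, and Ly6c1, at 80.5 to 94.3 and 84.9 to 92.8 cpm, encode Ly-6C. Mpo (0.83 ± 0.71, adjusted p = 0.721), Elane (1.69 ± 1.07, adjusted p = 0.599), Ltf (0.77 ± 2.33, adjusted p = 0.942) and Csf3 (0.23 ± 0.55, adjusted p = 0.924) did not pass either. In ethanol-treated skin edgeR called 0 of 9 members and 1.91% of all genes between aGr1 and PBS, with 1 member (Ltf) at an unadjusted p under 0.05, and DESeq2 called 0.

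The test of the difference between both MC903 effects, aGr1 minus PBS, called 0 of 9 members and 0.232% of all genes with edgeR, with 2 members (Csf3r and Ltf) at an unadjusted p under 0.05 and 0 members by DESeq2. The interaction was -0.93 ± 0.35 for Csf3r (adjusted p = 0.362), -0.96 ± 0.60 for Clec4d (adjusted p = 0.621), -1.04 ± 0.95 for Trem1 (adjusted p = 0.746) and 2.56 ± 3.19 for Ngp (adjusted p = 0.819). With 2 PBS libraries under MC903, a smaller rise under aGr1 could not be shown for any of the 9 members. Of the 15 other mature neutrophil genes the same test called 2 lower, Clec4e (-4.28 ± 0.69, adjusted p = 0.0257) and Slfn4 (-3.14 ± 0.53, adjusted p = 0.0334). Fcgr1 of the monocyte and macrophage list (-2.39 ± 0.38, adjusted p = 0.0238) and Cd8a of the T cell list (-7.73 ± 1.27, adjusted p = 0.0296) were called lower too.

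Among the other lists, 1 of 15 other mature neutrophil genes fell under aGr1 in MC903-treated skin, with a list median of -0.83 beside -0.009 over all genes. This was Slfn4, an interferon-induced gene of myeloid cells (-2.92 ± 0.38, adjusted p = 0.0132), and Il1b was next (-2.61 ± 0.48, adjusted p = 0.0519). Of the other secondary and tertiary granule genes 0 of 10 were called, at a median of 0.50 (0.45 with bounds), and the cathelicidin Camp stood at 1.56 ± 0.83 (adjusted p = 0.528). Promyelocyte genes, 0 of 6 called, had a median of 0.74, and recruitment signals, 0 of 9 called, a median of -0.45. Erythroid genes, 0 of 7 called, had a median of 2.06. They summed to 636 to 4374 cpm in aGr1 and 361 to 901 cpm in PBS MC903 skin, and monocyte and macrophage genes to 1167 to 1515 and 878 to 1090 cpm. Single genes of that list went both ways and 0 of 11 were called, with Fcgr1 at -1.46 ± 0.27 (adjusted p = 0.052), Ccr2 at -1.01 ± 0.28 and Csf1r at 1.03 ± 0.30. T cell genes, 0 of 4 called, had a median of -1.38 and summed to 5.25 to 10.2 cpm in aGr1 and 10.8 to 16.3 cpm in PBS MC903 skin. The part of these cells in the members' levels was not tested.

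**Figure D3:**
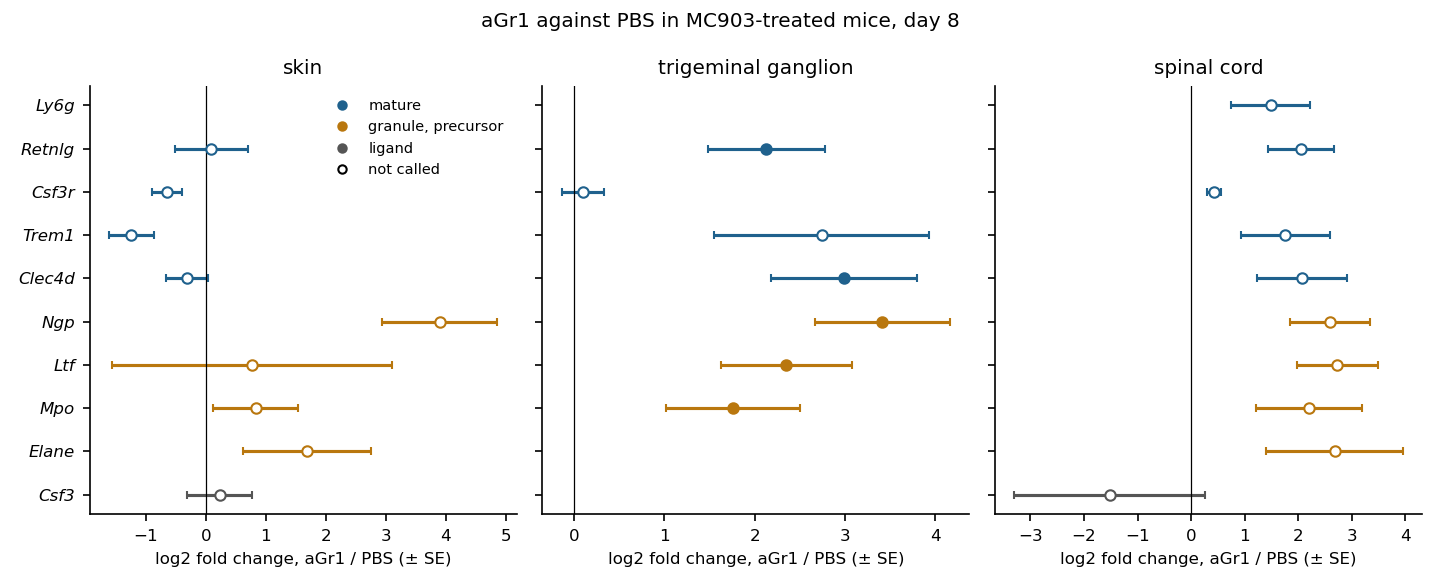
The log2 difference of aGr1 against PBS under MC903 at day 8, with SE bars, for each member in skin, TG and spinal cord. Filled points passed the threshold of the tissue and open points did not. Members under the count filter or with a group at 0 counts are left out. The granule genes plotted lie above 0 in all 3 tissues. In skin Csf3r, Trem1 and Clec4d lie below 0, and the mature gene Retnlg lies just above it. The SE bars of Clec4d, Retnlg, Ltf and Csf3 in skin cross 0, and no member passed the threshold there.

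Uninjected mice gave a second reference, which differed from aGr1 mice in the injection itself as well as in the antibody. The labels do not say which libraries were prepared together. The antibody and any batch cannot therefore be told apart, in this reference or against PBS. In MC903-treated skin 5 of 10 members were called against uninjected mice, where 36.6% of all genes were, 18.4% higher and 18.3% lower. Csf3r (-0.81 ± 0.29, adjusted p = 0.0351) and Trem1 (-1.65 ± 0.51, adjusted p = 0.0156) were lower with aGr1. Ngp (5.18 ± 0.86, adjusted p = 0.000117), Ltf (5.55 ± 1.87, adjusted p = 0.0261) and Mpo (3.46 ± 0.72, adjusted p = 0.000946) were higher. Ly6g, Retnlg and Clec4d of the mature genes and Elane of the granule genes were not called, so neither class was called as a whole. Without the uninjected MC903 library skin4 of cohort A only Ngp and Mpo were called. The adjusted p was then 0.110 for Csf3r, 0.0568 for Trem1 and 0.0547 for Ltf. Csf3r was also lost without aGr1 replicate 1 (0.0959) or 4 (0.107), and Ltf without aGr1 replicate 4 (0.406), uninjected replicate 1 (0.0721) or the cohort A library skin1 (0.0543). PBS against uninjected called 2 of 10 members under MC903, where 21.9% of all genes were called and 12.5% were higher, namely Ltf (4.80 ± 0.97, adjusted p = 0.00211) and Mpo (2.67 ± 0.79, adjusted p = 0.0237). These 2 were therefore higher also in mice that had received no antibody. Ltf was lost without PBS MC903 replicate 2 (adjusted p = 0.542), and Mpo without replicate 1 (0.124) or replicate 2 (0.1003). Under ethanol, Ltf alone of 10 members was called between aGr1 and uninjected skin, where 47.4% of all genes were and 25.2% were higher (10.31 ± 2.11, adjusted p = 0.00057), with 185 cpm in aGr1 replicate 4 and at most 0.658 cpm in the other 3. Without replicate 4 its adjusted p was 0.125. PBS against uninjected under ethanol called 0 of 10 members by edgeR, with 28.9% of all genes called, 0 members at an unadjusted p under 0.05 and 0 by DESeq2. The difference in MC903 effect, aGr1 minus uninjected, was called for 0 of 10 members by edgeR and for 1 by DESeq2, where 4.56% of all genes were called, and Mpo was the 1 member at an unadjusted p under 0.05 (3.02 ± 0.91, adjusted p = 0.0645).

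In the TG under MC903, granule and mature members alike were higher with aGr1. In all, 7 of 9 members tested were called higher than with PBS and none lower, where 30.3% of all genes were called and 15.1% were higher. Ngp was at 36.7, 7.53, 2.77 and 3.20 cpm with aGr1 and at 2.26, 1.07, 0.287 and 1.02 cpm with PBS, every aGr1 library being above every PBS library (3.41 ± 0.75, adjusted p = 0.00239). Ltf was at 16.9, 2.89, 2.55 and 1.09 cpm against 2.16, 1.21, 0.287 and 0.825 cpm and overlapped (2.35 ± 0.72, adjusted p = 0.0219). Mpo was at 3.80, 0.994, 0.340 and 0.203 cpm against 0.803, 0.291, 0.172 and 0.242 cpm, also overlapping (1.76 ± 0.74, adjusted p = 0.0938). In all 3 genes aGr1 replicate 1 was the highest library. Elane, neutrophil elastase, was at 0.791, 0.331, 0 and 0 cpm against 0 in all 4 PBS libraries, at least 1.83-fold higher (adjusted p = 0.0444).

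Of the mature members in TG, Retnlg was at 5.75, 1.32, 0.979 and 0.568 cpm with aGr1 against 1.21, 0.388, 0.287 and 0.0485 cpm with PBS (2.13 ± 0.65, adjusted p = 0.0204). Clec4d was at 0.580, 0.663, 0.128 and 0.406 cpm against 0.151, 0, 0.0574 and 0 cpm (2.99 ± 0.81, adjusted p = 0.0102). Both overlapped by 1 library or more. Ly6g, the gene of the depleted antigen, was at 0.316, 0.0473, 0.0425 and 0.0406 cpm with aGr1 and at 0 in all 4 PBS libraries (adjusted p = 0.0506), with no fold given because the aGr1 mean was under the floor too. Trem1 had 17 counts against 2 (ratio 7.57, 1.8 to 67.5, adjusted p = 0.103), and Csf3r, at 2.53, 1.32, 1.53 and 1.22 cpm against 1.86, 1.55, 1.38 and 1.46 cpm, overlapped widely (0.10 ± 0.24, adjusted p = 0.816).

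Most of the TG calls were lost without 1 library. Without aGr1 MC903 replicate 1, only Ngp and Clec4d were called, and the adjusted p was 0.203 for Retnlg, 0.275 for Ltf, 0.708 for Mpo, 0.165 for Elane and 0.171 for Ly6g. Mpo was also lost without aGr1 replicate 2 or any of PBS replicates 2, 3 and 4 (adjusted p 0.105 to 0.197). DESeq2 called 3 of the members and gave no adjusted p for Elane, Ly6g and Clec4d. Of the other lists, 7 of 10 secondary and tertiary granule genes (median 2.15, or 2.36 with bounds), 5 of 15 mature genes (0.75) and 1 of 7 promyelocyte genes were higher. Erythroid genes were higher in 5 of 7 (1.96), and summed to 992 to 6122 cpm with aGr1 and 276 to 942 cpm with PBS, with replicate 2 the highest and replicate 1 at 2362 cpm. Monocyte and macrophage genes summed to 85.1 to 168 and 114.1 to 147.4 cpm. The part of blood or marrow cells in these levels was not tested.

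Under ethanol in TG, edgeR called 0 of 9 members between aGr1 and PBS and 15.7% of all genes, with 2 members (Mpo and Elane) at an unadjusted p under 0.05, and DESeq2 called 0. Both had lower values with aGr1, Mpo at -1.88 ± 0.79 (adjusted p = 0.142) and Elane with 3 counts against 17 in PBS, a ratio of PBS to aGr1 of 8.37 (2.42 to 44.6, adjusted p = 0.205). Ngp was at 4.71, 3.73, 5.50 and 4.51 cpm with aGr1 and at 2.76, 0.650 and 7.71 cpm with PBS, the aGr1 values lying inside the PBS range (adjusted p = 0.859). The higher level of Ngp with aGr1 was thus called with MC903 and not with ethanol, and whether the 2 differ was not tested. Against uninjected TG, 4 of 9 members were higher with aGr1 under MC903, where 44.7% of all genes were called and 24.1% were higher. They were Ngp (3.71 ± 0.84, adjusted p = 0.00111), Clec4d (2.87 ± 0.86, adjusted p = 0.0102), Mpo (2.92 ± 0.96, adjusted p = 0.019) and Ltf (2.28 ± 0.85, adjusted p = 0.0377). Batches are not labelled here either. Without aGr1 replicate 1, Ltf (adjusted p = 0.501) and Mpo (0.275) were lost. Under ethanol Ltf alone of 9 members was called against uninjected TG, where 43.9% of all genes were and 24.2% were higher (2 ± 0.91, adjusted p = 0.0903), and it was lost without any 1 of the 4 aGr1 libraries or 4 of the 5 uninjected ones, all but replicate 2 (0.115 to 0.206). Uninjected TG could itself be high, as at day 1, when Ngp was at 22.5, 14.6, 1 and 1.04 cpm with MC903 and at 31.4, 1.89, 4.99 and 0.717 cpm with ethanol.

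In the spinal cord all members but Csf3 were higher on average with aGr1 than with PBS under MC903, but none passed. The edgeR test called 0 of 10 members and 0.0106% of all genes, 8 members being at an unadjusted p under 0.05 (all but Ly6g and Csf3) beside 4693 genes of all, and DESeq2 called 0 members. Ngp had a lowest, median and highest value of 12.3, 27.1 and 106 cpm in 8 aGr1 libraries, against 9.31 and 2.72 cpm with PBS (2.59 ± 0.75, adjusted p = 0.217). Ltf had 5.87, 15.8 and 51 cpm against 4.46 and 1.24 cpm (2.73 ± 0.76, adjusted p = 0.217). For both genes every aGr1 library was above both PBS libraries. Mpo had 1.21, 2.65 and 20.6 cpm against 1.37 and 0.711 cpm (2.20 ± 0.99, adjusted p = 0.276), and Elane 0.161, 0.995 and 8.43 cpm against 0.548 and 0.0309 cpm (2.68 ± 1.27, adjusted p = 0.298), each with overlap. Replicate 1 of aGr1 was the highest library in all 4 granule and precursor genes.

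Of the mature members in spinal cord, Retnlg had 2.33, 4.88 and 14.8 cpm with aGr1 against 2.35 and 0.680 cpm, overlapping by 1 library (2.04 ± 0.62, adjusted p = 0.217). Csf3r had 7, 7.86 and 9.35 cpm against 6.07 and 5.54 cpm, small in size though apart (0.43 ± 0.12, adjusted p = 0.217). Ly6g had 0.117, 0.423 and 1.01 cpm against 0.235 and 0.0928 cpm and overlapped (1.48 ± 0.74, adjusted p = 0.320). Trem1 stood at 1.76 ± 0.83 (adjusted p = 0.298), and Clec4d had 50 counts against 3, a ratio of 4.65 (1.5 to 23.3). Without PBS MC903 replicate 1, the higher of the 2 for these genes, Ngp (adjusted p = 0.0339), Ltf (0.0302) and Retnlg (0.0288) were called, with the 1 remaining PBS library taken to vary like the other groups. No other list had a called gene, and the medians were 2.02 for secondary and tertiary granule genes, 2.15 for promyelocyte genes and 1.38 for other mature genes beside 0.008 over all genes. Erythroid genes summed to 110 to 496 cpm with aGr1 and 163 to 471 cpm with PBS, B cell genes to 3.32 to 6.19 and 4.11 to 4.33 cpm, and monocyte and macrophage genes to 174 to 257 and 179 to 186 cpm, while eosinophil genes summed to 3.46 to 21 and 1.45 to 4.19 cpm.

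Against uninjected mice, with spinal cord batches again not labelled, the 4 members called under MC903 were the granule and precursor genes. Calls were common among all genes in this fit, and genes of the other mature list were called too. Under MC903, 4 of 10 members were higher with aGr1, where 53.1% of all genes were called and 27.2% were higher. Ngp was at 3.11, 3.16, 12.7 and 2.19 cpm in uninjected mice, with 1 of 4 libraries inside the aGr1 range (2.56 ± 0.58, adjusted p = 0.000452). Ltf was at 0.932, 1.54, 6.08 and 0.823 cpm, likewise with 1 library inside it (2.80 ± 0.61, adjusted p = 0.000306). Mpo (2.78 ± 0.75, adjusted p = 0.00257) and Elane (2.30 ± 0.87, adjusted p = 0.0275) were called too. Elane was lost without aGr1 replicate 1 (adjusted p = 0.142) or without uninjected replicate 1 (0.0753), 2 (0.0903) or 4 (0.0821). Of the 5 mature members 0 were called by edgeR, with 0 at an unadjusted p under 0.05. Retnlg stood at 0.88 ± 0.49 (adjusted p = 0.133) and was called without uninjected replicate 3 (0.0138), Csf3r at 0.26 ± 0.16 (0.17), Trem1 at 1.28 ± 0.64 (0.0964) and Ly6g at 0.77 ± 0.60 (0.291). In the other lists 6 of 10 secondary and tertiary granule genes, 3 of 7 promyelocyte genes and 5 of 15 mature genes were higher and 1 mature gene lower.

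Under ethanol in spinal cord, edgeR called 0 of 10 members between aGr1 and PBS, where 19.8% of all genes were called, with 4 members (Csf3r, Trem1, Ngp and Ltf) at an unadjusted p under 0.05, and DESeq2 called 2. Ngp had 5.72, 15.8 and 31.9 cpm with aGr1 against 3.79 and 5.30 cpm with PBS, without overlap (1.75 ± 0.76, adjusted p = 0.108). Ltf had 3.31, 10.1 and 20.5 cpm against 2.29 and 3.32 cpm, overlapping by 1 library (1.81 ± 0.75, adjusted p = 0.0915). Other lists had called genes here. Of the other secondary and tertiary granule genes 2 of 10 were higher (Lcn2 3.13 ± 0.97, Pglyrp1 0.81 ± 0.25), at a list median of 1.16, as were 2 of 15 mature genes (Lrg1 3.04 ± 0.82, Slfn4 1.96 ± 0.68), at a median of 0.98. Of 7 promyelocyte genes 0 were called, at a median of 1.59 beside 0.024 over all genes. Of the recruitment signals Cebpb and Socs3 were higher, and of 11 monocyte and macrophage genes 3 were, namely Ly6c1 (0.81 ± 0.13), Ly6c2 (0.67 ± 0.21) and Cd14 (0.83 ± 0.29). The monocyte and macrophage list summed to 219 to 285 cpm with aGr1 and 182 to 200.5 cpm with PBS, and its part in the members' levels was not tested. Against uninjected mice 3 of 10 members were higher, where 54.7% of all genes were called and 29.5% were higher, with a median over all genes of 0.119. They were Ngp (1.40 ± 0.54, adjusted p = 0.0293), Ltf (1.81 ± 0.57, adjusted p = 0.0083) and Csf3. Ngp was lost without aGr1 replicate 5 (0.0932) or uninjected replicate 1, 3 or 5 (0.0703 to 0.0741). Csf3 had 20 counts against 1, a ratio of 18.6 (2.98 to 772, adjusted p = 0.0176), of which 15 counts were in aGr1 replicate 3, and without that library the adjusted p was 0.202.

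**Figure D4:**
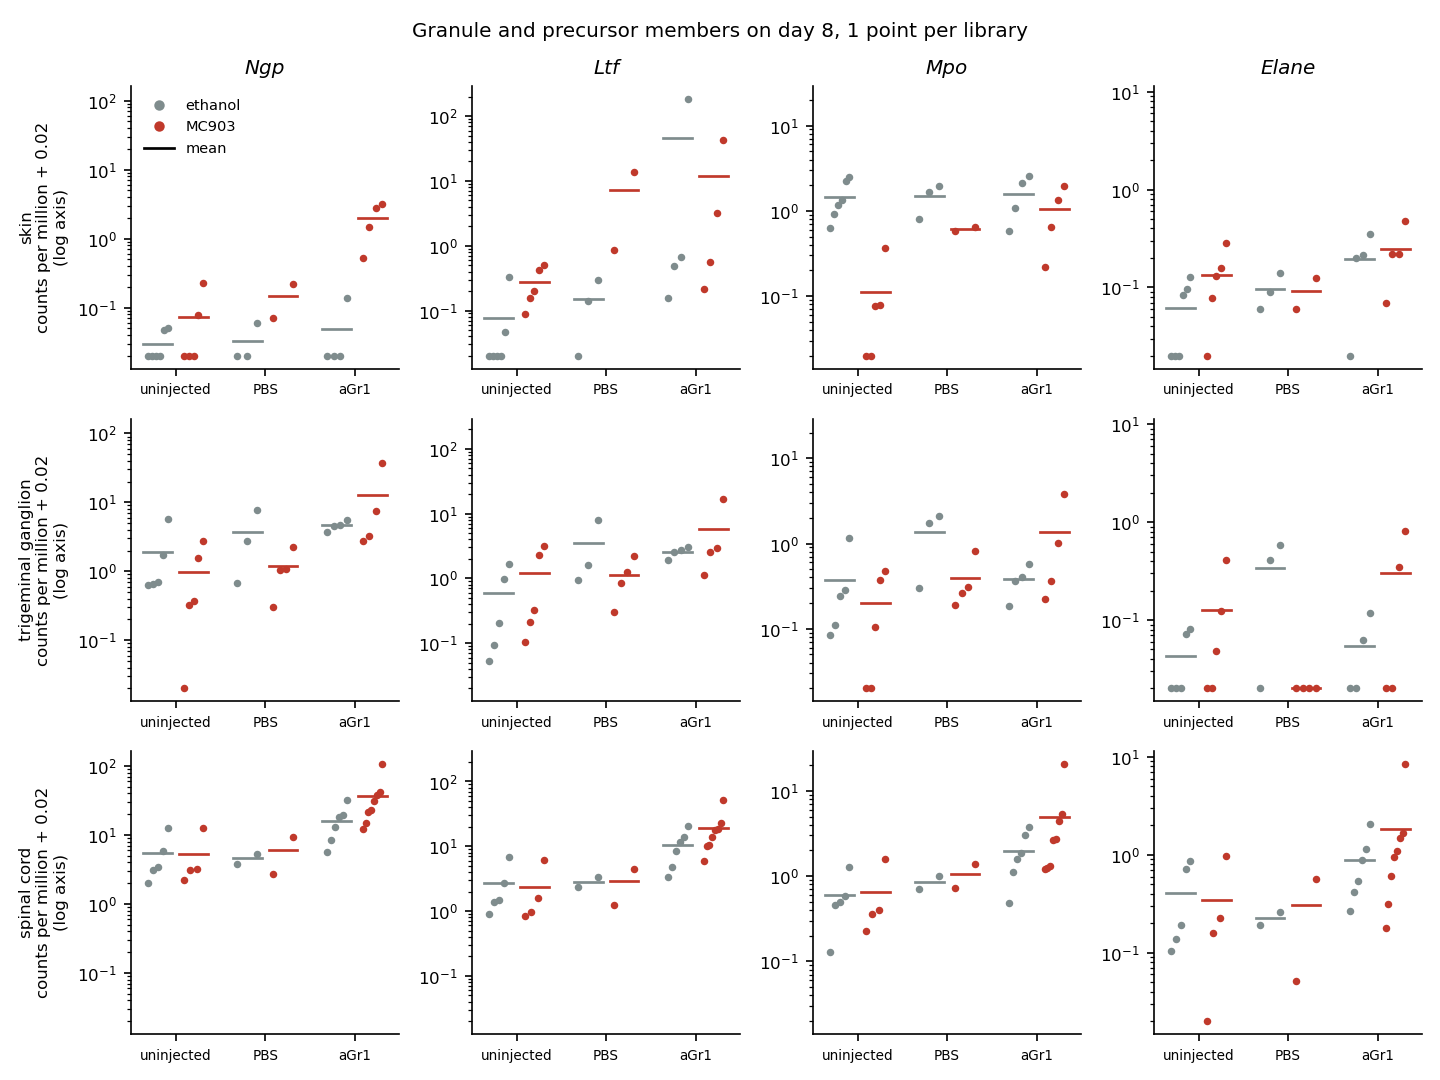
Levels of Ngp, Ltf, Mpo and Elane at day 8 in skin, TG and spinal cord of wild-type mice, as cpm + 0.02 on a log axis, for uninjected, PBS and aGr1 mice. Each point is a library, ethanol in grey and MC903 in red, and lines are group means. In spinal cord the aGr1 MC903 libraries of Ngp, at 12.3 to 106 cpm, lie above both PBS MC903 libraries.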

How the data were processed

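RNA-seq libraries of skin, trigeminal ganglion and spinal cord were grouped as labelled, by tissue, day, genotype, treatment and injection. Per the labels and the study's methods, the authors mapped single-end reads of poly(A) RNA to mm10 with Bowtie2 and TopHat, and HTSeq counted them per gene. The deposited values are raw counts per Ensembl gene without normalization. Annotation release and strand setting are not given in the sources used here. Symbols came from GENCODE M21 (GRCm38), which matched 45143 of 46078 identifiers and left 935 without a symbol. The 5 tally lines that name no gene, 9.0% to 32.22% of a library's entries, stayed out of totals and tests. Depth was 15931871 to 67342879 counts on genes with a median of 27654801.5. No 2 libraries were identical. Wild-type day 12 libraries (18) were left out by the rule that defined the gene set.

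Comparisons used edgeR 4.0.16 in R 4.3.3 (glmQLFit, glmQLFTest, TMM) on genes with at least 10 counts over the libraries fitted, and were checked on simulated data. MC903 was compared with ethanol on each group's own libraries, aGr1 with PBS or uninjected in fits of 4 groups, with a term for the 2 label cohorts (A and B) of day 8 uninjected skin and TG. The study's methods name DESeq, which was not run. Adjusted p-values are Benjamini-Hochberg over all genes tested. A fold against a group at 0 counts was computed against 3 counts per library, and a group of 1 to 3 counts gave a ratio with a 95% exact interval. Both cover counting error only. Alternatives were DESeq2 1.42.0, its size factors, filterByExpr, no filter, a replicate block, other sets of libraries in the fit and each library left out. limma 3.58.1 was loaded by edgeR. Results of all 10 members were read in every comparison, though the text does not name each of them in each. Up to 4 genes of each other list were named, by smallest p. The result of 1 gene under this rule is not reported here, although it stays in the counts. The members and lists were chosen with earlier results of these data known.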

Additional observations from a re-analysis of the deposited data

Results flagged for a closer look

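A library that stood far from the rest of its group (the gap to its nearest neighbour over the group's range, by Dixon's 95% limit) was looked for in every set of a member and a group of 4 to 10 libraries, and 31 were found, in 24.8% of the sets. The limit marks about 1 in 20 groups of independent normal values, which these sets, many near 0 counts and sharing libraries, are not. In TG aGr1 MC903 replicate 1 was high in Ngp (36.7 cpm), Ltf (16.9), Retnlg (5.75) and Ly6g (0.316). In spinal cord aGr1 MC903 replicate 1 was high in Ngp (106.4 cpm), Ltf (51), Mpo (20.6) and Elane (8.43). In uninjected TG ethanol replicate 2 was high in Ngp (5.69 cpm), Retnlg (3.34) and Mpo (1.14), and in uninjected spinal cord MC903 replicate 3 in Ngp (12.7 cpm), Ltf (6.08) and Mpo (1.58). In each of these 4 libraries Ngp was high together with other members. Without the TG aGr1 library 5 of 7 calls against PBS were lost.

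In skin, Ltf was far from its group at 165 cpm (164.8) in day 1 MC903 replicate 3, 185 cpm in aGr1 ethanol replicate 4, 43.6 cpm in aGr1 MC903 replicate 4 and 0.306 cpm in the day 8 uninjected ethanol library skin3 of cohort A. The day 8 uninjected MC903 library skin4 of cohort A was high in Csf3r (35 cpm) and Trem1 (14.7), and replicate 1 of the same group in Mpo (0.342) and Ngp (0.205). At day 1, MC903 libraries stood out in Ly6g (0.208 cpm, replicate 3) and Trem1 (0.471, replicate 2), and ethanol libraries in Ngp (0.695, replicate 4) and Elane (0.316, replicate 3). Csf3 stood out at 1.70 cpm in aGr1 MC903 skin replicate 2, at 1.01 cpm in TSLPR.KO day 12 MC903 skin replicate 3 and at 0.543 cpm in aGr1 ethanol spinal cord replicate 3. In uninjected day 8 MC903 TG, Clec4d was at 0.244 cpm in cohort A library TG1 and Elane at 0.395 cpm in replicate 1. What set these libraries apart was not tested.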

How the results depend on the processing

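Of 162 counts of members called under alternatives that kept all libraries or changed the set fitted, 137 stayed within 1.5 times the main count, as did 189 of 215 with 1 library left out. No called member changed sign in any alternative run. Without a filter on low counts, 2 members were called at day 1, 1 in TG aGr1 against PBS under ethanol and 2 in TG aGr1 against uninjected under ethanol. With DESeq2, 6 were called in TSLPR.KO day 12, 1 in skin aGr1 against PBS under MC903, 1 in the skin interaction with uninjected mice, 3 in TG aGr1 against PBS under MC903, 0 in TG aGr1 against uninjected under ethanol and 2 in spinal cord aGr1 against PBS under ethanol. With filterByExpr the last count was 1 and that of TG aGr1 against PBS under MC903 was 4. With all 6 groups in 1 fit, 1 member was called in skin aGr1 against PBS under ethanol, 2 in aGr1 against uninjected under ethanol, 1 in the interaction with uninjected mice, 1 in PBS against uninjected under MC903 and 4 in TG aGr1 against PBS under MC903. With cohort B alone, skin aGr1 against uninjected gave 1 under MC903 and 2 under ethanol, PBS against uninjected 1 under MC903, and TG aGr1 against uninjected 0 under ethanol, as did a threshold of 0.05 there. The cause of these shifts was not tested.

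Equal replicate numbers did not pair the libraries (correlations of deviations -0.5 to 0.506, and no comparison of 3 or more pairs had all above 0.1). With the replicate block, 2 members were called at day 1, 1 at day 2, 2 in skin aGr1 against uninjected and 1 in PBS against uninjected under MC903. With each library left out in turn, counts ran from 1 to 2 at day 1, 1 to 5 in PBS skin, 1 to 4 in TSLPR.KO day 8, 2 to 6 and 1 to 2 in skin aGr1 against uninjected under MC903 and ethanol, 0 to 1 in its interaction, 0 to 2 in PBS against uninjected under MC903, 2 to 8 and 0 to 1 in TG aGr1 against PBS, 0 to 3 in TG aGr1 against uninjected under ethanol, and 0 to 3 and 0 to 1 in spinal cord aGr1 against PBS under MC903 and ethanol. In skin aGr1 against PBS under MC903, the log2 difference of Csf3 then ran from -0.32 to 0.41 and that of Retnlg from -0.53 to 1.24 (-0.10 without aGr1 replicate 4), and the interaction of Trem1 from -1.41 to 0.24. None of these was called. Depth limited Ly6g, Ngp, Csf3 and Elane in skin, where each was at 3 counts or fewer in most libraries, and 2 PBS libraries limited the MC903 comparisons in skin and spinal cord.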
